A study of Kluyveromyces lactis with 8 samples.

Results

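Transcripts of the mitochondrial respiratory chain and ATP synthase were followed in the milk yeast Kluyveromyces lactis across 3 deletion strains and their wild type. The members are genes whose symbol in the reference gene table (RefSeq assembly ASM251v1) is COX, QCR or ATP followed by a digit, or CYT1, CYC1 or RIP1, joined to the deposited values by locus tag. The table holds 47 such genes, and 41 of the 5076 genes with deposited values are among them. The other 6 (COX1, COX2, COX3, ATP6, ATP8 and ATP9) are encoded by the mitochondrial genome and were not analysed here. No entry carried the symbol CYC1 or COX5A, so cytochrome c and that oxidase subunit were not analysed here either. The 41 genes divide into 8 subunits of complex III, 7 subunits and 10 assembly factors of complex IV, and 10 subunits and 6 assembly factors of ATP synthase.

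The study compared 4 strains with 2 RNA-seq libraries each: sir2∆ (LRY2850), sir4∆ (LRY3096), sum1∆ (LRY3098) and the wild type, WT (LRY2835). Sir2 is an NAD-dependent deacetylase, Sir4 a silencing protein, and Sum1 a DNA-binding repressor. All 4 strains, WT included, are MATa and lack both silent mating cassettes (hmr∆ hml∆), and each mutant is represented by 1 strain. Cells were taken in early log phase: cultures in the rich glucose medium YPD at 30 °C were started at an OD of 0.3 and collected at an OD of 1. The design text calls the 2 libraries of each strain technical replicates, so the p-values below measure only the spread between libraries and not between cultures.

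Complex III (cytochrome bc1) takes electrons from reduced coenzyme Q and passes them to cytochrome c, and complex IV (cytochrome c oxidase) passes them on to oxygen. Both pump protons across the inner mitochondrial membrane, and ATP synthase uses the returning protons to make ATP. K. lactis respires even when glucose is plentiful, unlike Saccharomyces cerevisiae, in which most of these genes were characterised and from which the roles given here are taken. Assembly factors are not part of the finished enzymes but insert haem and copper, fold subunits or guide their membrane insertion.

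Levels are given as the authors deposited them, in FPKM: fragments per kilobase of gene and per M fragments, with libraries scaled as Cuffnorm did it. In WT the subunits were far more abundant than the factors that build them. Mean FPKM in WT had a median of 1141 over the complex III subunits (range 290 for QCR9 to 8157 for QCR8), 5162 over the complex IV subunits (1839 for COX6 to 16128 for COX7) and 1655 over the ATP synthase subunits (698 for ATP17 to 14739 for ATP18). The same median was 183 over the complex IV assembly factors (65.1 for COX18 to 2607 for COX14) and 109 over the ATP synthase assembly factors (21.7 for ATP22 to 273 for ATP11). The 2 most abundant members, COX7 and ATP18, have table lengths of 189 and 177 bases, and COX9 and COX14 are also under 200 bases, so their FPKM depend strongly on the length correction. The 41 genes together took 6.34% and 6.46% of all summed FPKM in the sir2∆ libraries, 4.24% and 4.36% in sir4∆, 5.99% and 6.05% in sum1∆, and 5.18% and 5.08% in WT. The 4 strains did not overlap in this share. The summed FPKM of all genes also differed by strain. It was 1709781 and 1690136 in sir2∆ and 1895709 and 1883255 in sir4∆. In sum1∆ it was 1635759 and 1650047, and in WT 1838448 and 1850300. The members alone summed to 108418 and 109174 FPKM in sir2∆ and 80455 and 82170 in sir4∆. In sum1∆ they summed to 98010 and 99866, and in WT to 95307 and 94011.

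Depth, estimated from how finely the values of weakly expressed genes are spaced, was 10.1 to 26.2 M reads per library. Both sir4∆ libraries were shallow (10.6 and 11.5 M) and both sum1∆ libraries deep (21.7 and 26.2 M), whereas sir2∆ (10.1 and 21.2 M) and WT (21.7 and 11.8 M) had 1 of each. The member with the fewest estimated reads in any library was COX19, with 168 in a sir4∆ library. Replicate libraries differed by a median of 0.04 to 0.08 log2 units over the members, and most widely at ATP22, by 0.39 in sir4∆. SUM1 was listed at 0 FPKM in both sum1∆ libraries. No entry has the symbol SIR2 or SIR4, so those labels were not checked by symbol. KLLA0F14663g, an entry without a symbol that was chosen once its values were known, was listed at 0.0513 and 0 FPKM in sir2∆ and had 56.3 to 73.2 FPKM in the other 6 libraries.

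All fold changes compare log2(FPKM + 1) values. They come from a limma fit to 5022 genes, those whose mean over the libraries reached 1 FPKM, and all 41 members passed that filter. A gene passed the test when its adjusted p (Benjamini-Hochberg) was below 0.05, and was called when its log2 fold change was also at least 1 in size. In sir2∆, 25 members were higher than in WT and 4 were lower, where 28.9% and 29.2% of all tested genes were higher and lower. The members' median log2 fold change was 0.19 and that of all genes -0.01. In sir4∆, none was higher and 31 were lower than in WT, against 16.8% and 20.9% of all genes, with a median of -0.27 (all genes -0.01). At an unadjusted p below 0.05, limma put 2 members higher and 34 lower in sir4∆. The share of all genes at an unadjusted p was not counted, so such counts, here and below, stand without a background. In sum1∆, 23 members were higher and 12 lower than in WT, against 33.6% and 32.6% of all genes, with a median of 0.21 (all genes -0.01). With quantile normalization 29 members were higher and 3 lower in sir2∆, where 1211 and 1916 of the 5022 genes were higher and lower. In sum1∆ 26 were higher and 8 lower, where 1370 and 2140 of all genes were. The median of all genes was then -0.08 in sir2∆ and -0.1 in sum1∆. With depth class (shallow or deep) as a term, 25 members were higher and 4 lower in sir2∆ (1493 and 1514 of all genes). The counts were then 0 and 26 in sir4∆ (662 and 840) and 23 and 12 in sum1∆ (1583 and 1498).

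Most of these differences were smaller than a factor of 2. The 4 members called were all higher in sum1∆ than in WT, where 7.73% of all genes were called higher and 2.87% lower. No member was called in sir2∆ (4.9% and 0.717% of all genes) or in sir4∆ (0.617% and 0.737%). Without WT replicate 1, the log2 fold changes of COX19 and COX23 in sir2∆ were 1.06 and 1.05, which would add 2 calls there, and without sir2∆ replicate 1 that of COX23 was 1.05. Of the 4 members lower in sir2∆, the only one that passed the test whichever library was left out was COX15, and 2 passed in each such fit. In sir4∆, the 31 lower members numbered 21 without sir4∆ replicate 1 and 22 without WT replicate 1.

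**Figure D1:**
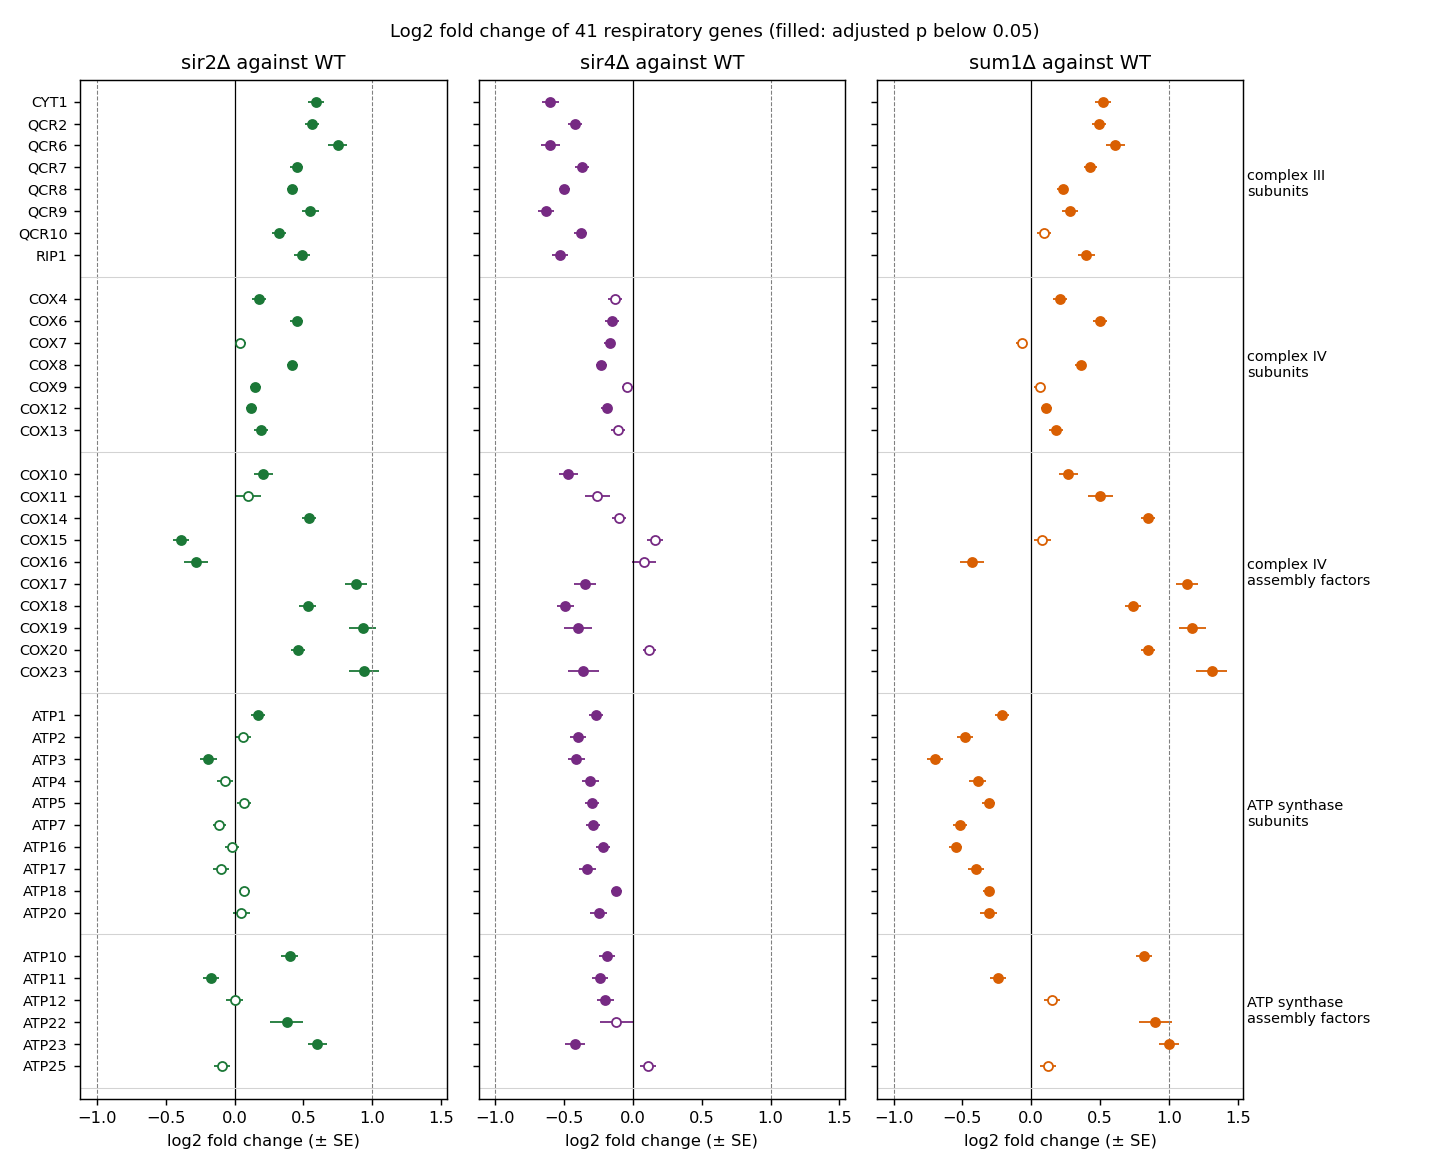
Log2 fold change (x axis, ± SE) of each of the 41 genes (y axis, grouped by complex and class) in sir2∆, sir4∆ and sum1∆ against WT, with filled points for an adjusted p below 0.05 and dashed lines at -1 and 1. The 8 complex III subunits lie right of 0 in sir2∆ and sum1∆ and left of 0 in sir4∆, while the 10 ATP synthase subunits lie left of 0 in sir4∆ and sum1∆.

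Complex III subunits moved together in every mutant. All 8 were higher in sir2∆ than in WT (median log2 fold change 0.52), all 8 were lower in sir4∆ (median -0.51), and 7 of 8 were higher in sum1∆ (median 0.42). These counts held under every alternative setting and every library left out, apart from a count of 8 in sum1∆ with quantile normalization. Summed over the 8 genes, complex III subunits took 1.40% and 1.45% of all FPKM in sir2∆, 0.658% and 0.678% in sir4∆, 1.33% and 1.37% in sum1∆, and 0.968% and 0.93% in WT.

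CYT1 (KLLA0F16555g) encodes cytochrome c1, the haem subunit that hands electrons to cytochrome c. It had 1220 and 1214 FPKM in sir2∆, 535 and 528 in sir4∆, 1165 and 1154 in sum1∆, and 853 and 764 in WT. The WT libraries lay between sir4∆ and the other 2 mutants, with no overlap. The log2 fold change against WT was 0.59 in sir2∆ (SE 0.06, limma adjusted p = 8.25e-05), -0.60 in sir4∆ (SE 0.06, adjusted p = 0.000664) and 0.52 in sum1∆ (SE 0.06, adjusted p = 9.38e-05).

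RIP1 (KLLA0E22573g), the Rieske iron-sulfur protein that takes the first electron from coenzyme Q, had 1335 and 1334 FPKM in sir2∆, 663 and 653 in sir4∆, 1252 and 1265 in sum1∆, and 1014 and 891 in WT. Its log2 fold changes were 0.49, -0.53 and 0.40 in sir2∆, sir4∆ and sum1∆ (SE 0.06 each, limma adjusted p = 0.000351, 0.000932 and 0.00061). QCR2 (KLLA0B03564g), a core subunit, had 1433 and 1420 FPKM in sir2∆, 710 and 730 in sir4∆, 1330 and 1388 in sum1∆, and 992 and 941 in WT. For QCR2 the log2 fold changes were 0.56, -0.42 and 0.49 in sir2∆, sir4∆ and sum1∆ (SE 0.05 each, limma adjusted p = 4.68e-05, 0.000858 and 4.92e-05). Both genes showed the same order of strains as CYT1, again without overlap with WT.

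QCR6 (KLLA0D16093g), the acidic hinge subunit bound to cytochrome c1, changed most in the set in sir2∆ and sum1∆. It had 2268 and 2262 FPKM in sir2∆, 827 and 956 in sir4∆, 2028 and 2095 in sum1∆, and 1368 and 1326 in WT. The log2 fold changes were 0.75, -0.60 and 0.61 in sir2∆, sir4∆ and sum1∆ (SE 0.07 each, limma adjusted p = 5.96e-05, 0.000837 and 9.23e-05). In sir4∆ the lowest fold change of all 41 genes was that of QCR9 (KLLA0F15325g), a small subunit, at -0.63 (SE 0.06, adjusted p = 0.000591). QCR9 had 420 and 428 FPKM in sir2∆, 182 and 193 in sir4∆, 339 and 366 in sum1∆, and 293 and 288 in WT.

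QCR7 and QCR8, small subunits that sit next to the mitochondrially encoded cytochrome b, are the most abundant of the 8. QCR7 had log2 fold changes of 0.45, -0.37 and 0.43 and QCR8 of 0.42, -0.50 and 0.23 in sir2∆, sir4∆ and sum1∆. The member that missed the test in sum1∆ was QCR10, a small subunit that S. cerevisiae can do without. It had 1673 and 1621 FPKM in sir2∆, 971 and 1047 in sir4∆, 1398 and 1401 in sum1∆, and 1343 and 1289 in WT. Both sum1∆ libraries lay above both WT libraries, but the log2 fold change of 0.09 had an adjusted p = 0.159. The table lengths of QCR9 and QCR10, like those of ATP17 and COX17, are not multiples of 3 and so are not plain coding lengths.

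**Figure D2:**
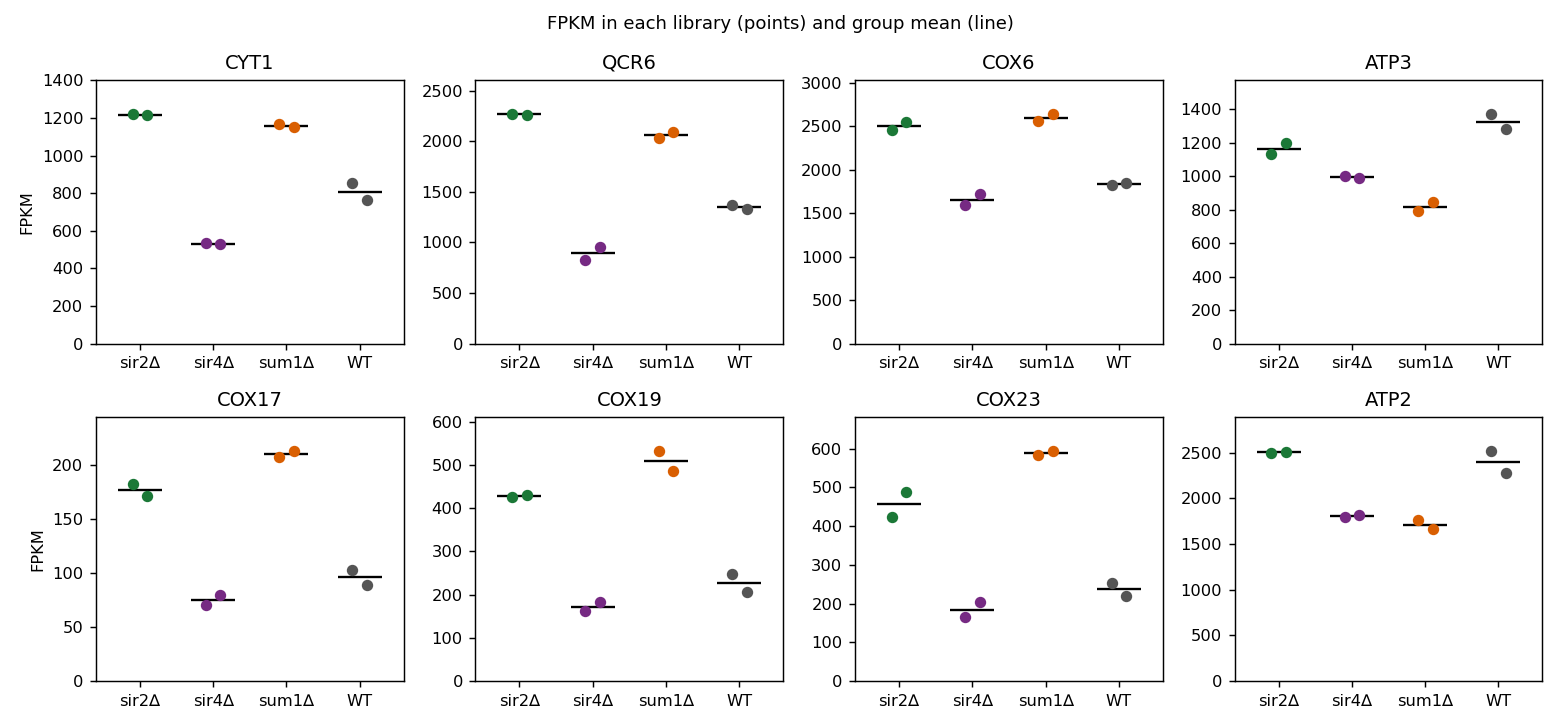
FPKM (y axis, from 0) of 8 genes in each library (points) and the mean of each strain (line), with sir2∆, sir4∆, sum1∆ and WT from left to right. CYT1 and QCR6 are high in sir2∆ and sum1∆ and low in sir4∆, COX17, COX19 and COX23 are highest in sum1∆, and ATP2 and ATP3 are low in both sir4∆ and sum1∆.

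Complex IV subunits had smaller median changes than complex III subunits. Of 7, 6 were higher in sir2∆ and none lower (median log2 fold change 0.18), 4 were lower in sir4∆ and none higher (median -0.15), and 5 were higher in sum1∆ and none lower (median 0.18). At an unadjusted p below 0.05 in limma the counts were 6 higher and 0 lower in sir2∆, 0 and 6 in sir4∆, and 5 and 0 in sum1∆. Smaller counts came without sir2∆ replicate 2 or WT replicate 1 in sir2∆ (3 each), without sir4∆ replicate 1 or WT replicate 2 in sir4∆ (2 each) and without sum1∆ replicate 2 in sum1∆ (2). With quantile normalization all 7 were higher in sir2∆ (median 0.38) and in sum1∆ (median 0.45).

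COX6 (KLLA0F21890g), subunit VI, and COX8, subunit VIII, had the highest fold changes of the 7 in sir2∆ and sum1∆. COX6 had 2465 and 2547 FPKM in sir2∆, 1590 and 1718 in sir4∆, 2561 and 2642 in sum1∆, and 1824 and 1854 in WT. Its log2 fold change was 0.45 in sir2∆ (SE 0.05, limma adjusted p = 0.000184), -0.15 in sir4∆ (SE 0.05, adjusted p = 0.0425, or 0.196 without sir4∆ replicate 1 and 0.104 and 0.121 without WT replicates 1 and 2) and 0.50 in sum1∆ (SE 0.05, adjusted p = 5.5e-05). COX8 had 7069 and 6779 FPKM in sir2∆, 4424 and 4357 in sir4∆, 6714 and 6536 in sum1∆, and 5131 and 5192 in WT, with no overlap between any mutant and WT. COX8 stood at 0.42 in sir2∆, -0.23 in sir4∆, the lowest of the 7 there, and 0.36 in sum1∆ (SE 0.04 each, limma adjusted p = 6.73e-05, 0.003 and 8.86e-05).

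COX9, encoding subunit VIIa, lies next to COX8 in the gene order of the reference table. For COX9 the values were 0.15 in sir2∆, which passed the test unless sir2∆ replicate 1 (adjusted p = 0.0743) or WT replicate 1 (0.0505) was left out, and -0.04 in sir4∆ and 0.06 in sum1∆, which did not. With quantile normalization COX9 passed it in sum1∆, at 0.38 (adjusted p = 0.000113). Strand was not kept in these libraries, so reads of overlapping neighbours cannot be told apart. COX4 (KLLA0D05082g), the zinc-binding subunit, had 2746 and 2782 FPKM in sir2∆, 2280 and 2173 in sir4∆, 2731 and 2901 in sum1∆, and 2401 and 2467 in WT. It was higher in sir2∆ (log2 fold change 0.18, SE 0.05, limma adjusted p = 0.0112) and in sum1∆ (0.21, SE 0.05, adjusted p = 0.00488), and in sir4∆ it stood at -0.13 (SE 0.05, adjusted p = 0.0644). The adjusted p of COX4 was 0.0617 in sir2∆ without sir2∆ replicate 2, 0.0505 there without WT replicate 1, and 0.0505 in sum1∆ without sum1∆ replicate 2. COX7, the most abundant gene of all 41, had log2 fold changes of 0.04 in sir2∆ and -0.07 in sum1∆, neither past the test, and -0.17 in sir4∆ (adjusted p = 0.0118, or 0.0593 without sir4∆ replicate 1 and 0.0604 without WT replicate 2). In sum1∆ the direction of COX7 turned with quantile normalization, to 0.29.

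The highest fold changes of the members in sir2∆ and sum1∆ were among the genes that build complex IV. Of 10 assembly factors, 7 were higher and 2 lower in sir2∆ (median log2 fold change 0.50), none was higher and 5 were lower in sir4∆ (median -0.30, with 2 higher and 6 lower at an unadjusted p below 0.05 in limma), and 8 were higher and 1 lower in sum1∆ (median 0.80). The sir4∆ count was 2 without sir4∆ replicate 1 and 2 without WT replicate 1.

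The 3 largest rises in both sir2∆ and sum1∆ were those of COX17, COX19 and COX23, small proteins of the intermembrane space in the supply of copper to the oxidase. COX17 (KLLA0F15686g), the copper chaperone, had 183 and 172 FPKM in sir2∆, 70.3 and 79.3 in sir4∆, 208 and 213 in sum1∆, and 103 and 89.1 in WT. The libraries of each mutant lay wholly above or wholly below those of WT. The log2 fold change was 0.88 in sir2∆ (SE 0.08, limma adjusted p = 8.13e-05), -0.35 in sir4∆ (SE 0.08, adjusted p = 0.0133) and 1.13 in sum1∆ (SE 0.08, adjusted p = 1.17e-05).

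COX19 (KLLA0D03971g) had 426 and 431 FPKM in sir2∆, 161 and 182 in sir4∆, 531 and 485 in sum1∆, and 248 and 205 in WT. Its log2 fold changes were 0.93, -0.40 and 1.17 in sir2∆, sir4∆ and sum1∆ (SE 0.10 each, limma adjusted p = 0.000134, 0.015 and 2.16e-05). COX23 (KLLA0F24024g) had 424 and 489 FPKM in sir2∆, 165 and 204 in sir4∆, 585 and 593 in sum1∆, and 254 and 220 in WT. Its log2 fold changes were 0.94, -0.36 and 1.31 (SE 0.11 each, adjusted p = 0.000287, 0.0381 and 2.69e-05), and 1.31 was the largest of any member against WT. For both genes the WT libraries lay between those of sir4∆ and those of the other 2 mutants. The falls of COX17, COX19 and COX23 in sir4∆ missed the test without sir4∆ replicate 1 (adjusted p = 0.0773, 0.0892 and 0.203) and without WT replicate 1 (adjusted p = 0.0765, 0.0792 and 0.2).

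Other factors that rose in both sir2∆ and sum1∆ were COX14, which links translation of Cox1 to its assembly (log2 fold changes 0.54 and 0.85), COX18, which exports the tail of Cox2 (0.53 and 0.74), and COX20 (KLLA0C15015g), the Cox2 chaperone (0.46 and 0.85). COX18 was lower in sir4∆, at -0.49 (adjusted p = 0.000837), and COX14 stood at -0.10 there (adjusted p = 0.186). COX20 had 145 and 146 FPKM in sir2∆, 114 and 114 in sir4∆, 189 and 191 in sum1∆, and 107 and 103 in WT. The sir4∆ libraries lay above WT, with a log2 fold change of 0.12 (SE 0.05) that missed the test (limma adjusted p = 0.085). COX11, which delivers copper to Cox1, was higher in sum1∆ (0.50, limma adjusted p = 0.0014). It stood at 0.10 in sir2∆ (adjusted p = 0.353) and -0.26 in sir4∆ (adjusted p = 0.053).

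COX10, haem O synthase, and COX15, haem A synthase, make the haem of the oxidase in consecutive steps, and they differed in direction in sir2∆. COX10 had 118 and 122 FPKM in sir2∆ and 111 and 96.2 in WT, a log2 fold change of 0.21 (adjusted p = 0.0379, or 0.0798 and 0.156 without sir2∆ replicates 1 and 2 and 0.206 without WT replicate 2). In sir4∆ COX10 was lower, at -0.47 (limma adjusted p = 0.00234), and in sum1∆ higher, at 0.27 (adjusted p = 0.012). The sum1∆ fold change of COX10 was 0.17 without WT replicate 2. COX15 (KLLA0E10385g) had 342 and 334 FPKM in sir2∆, 493 and 496 in sir4∆, 459 and 479 in sum1∆, and 419 and 469 in WT. It fell in sir2∆ by 0.39 on the log2 scale (SE 0.06, limma adjusted p = 0.00106), and stood at 0.16 in sir4∆ (adjusted p = 0.0775) and 0.08 in sum1∆ (adjusted p = 0.273), where its libraries overlapped with WT.

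COX16 (KLLA0F13024g), which acts in the assembly of Cox1 and Cox2, was lower in sir2∆ and sum1∆. It had 866 and 809 FPKM in sir2∆, 1108 and 1033 in sir4∆, 730 and 781 in sum1∆, and 927 and 1111 in WT. The log2 fold change was -0.28 in sir2∆ (SE 0.09, limma adjusted p = 0.0259), 0.08 in sir4∆ (SE 0.09, adjusted p = 0.527) and -0.43 in sum1∆ (SE 0.09, adjusted p = 0.00302). In sir2∆ the adjusted p was 0.14 without sir2∆ replicate 2 and 0.142 without WT replicate 2.

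**Figure D3:**
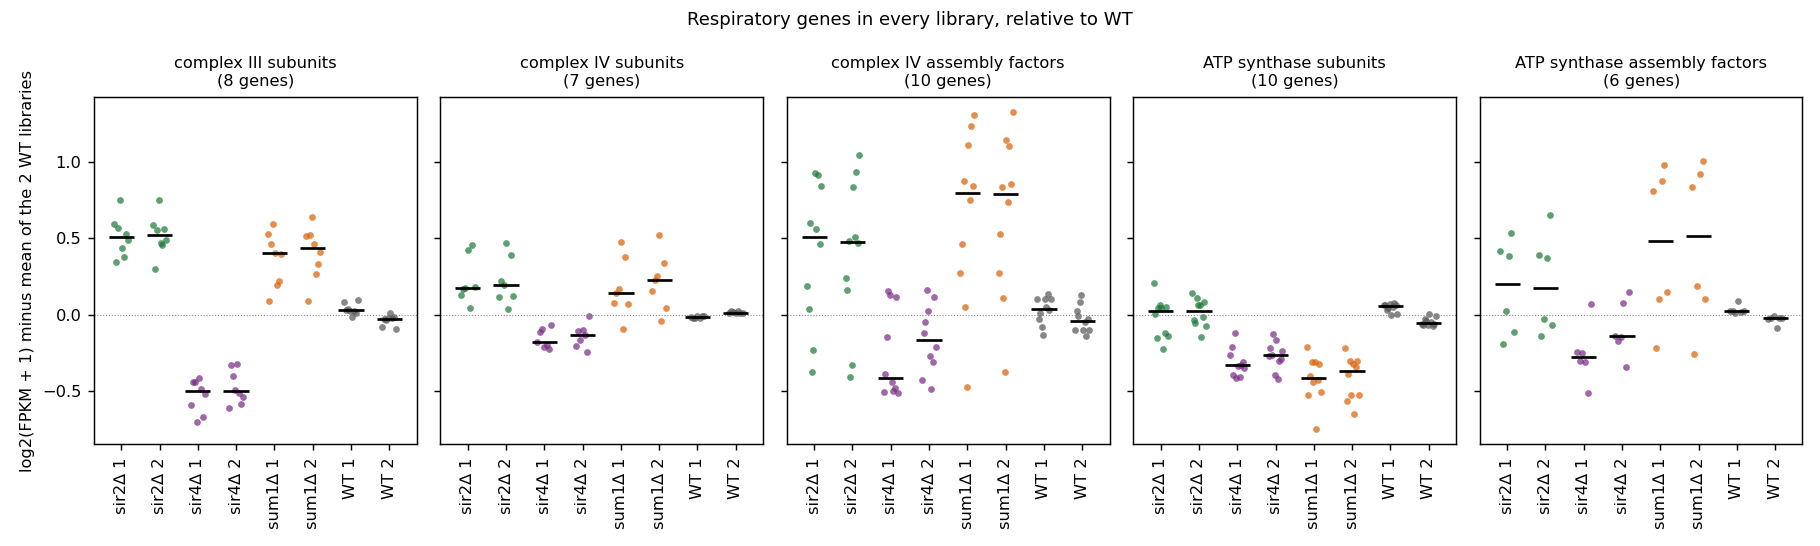
Level of every member in each library relative to the mean of the 2 WT libraries (y axis, log2(FPKM + 1)), in 5 panels by complex and class, with libraries of sir2∆, sir4∆, sum1∆ and WT from left to right on the x axis. Points are genes and black lines are medians, which for complex III subunits are above 0 in sir2∆ and sum1∆ and below 0 in sir4∆, and for ATP synthase subunits are below 0 in sir4∆ and sum1∆.

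ATP synthase subunits went with complex III in sir4∆ but not in sum1∆. All 10 were lower in sir4∆ than in WT (median log2 fold change -0.30) and all 10 were lower in sum1∆ (median -0.39), while in sir2∆ 1 was higher, 1 was lower and 8 missed the test (median 0.02). The lower counts were 8 to 10 in sir4∆ over the alternatives and the libraries left out, and in sum1∆ they were 10 in all of them but quantile normalization, with 6. In sir2∆ quantile normalization put 5 higher and 1 lower. Summed, the 10 genes took 1.72% and 1.80% of all FPKM in sir2∆, 1.31% and 1.34% in sir4∆, 1.38% and 1.37% in sum1∆, and 1.63% and 1.53% in WT. The share was higher in sum1∆ than in sir4∆ because the FPKM total of all genes was smaller in sum1∆. In FPKM the 10 genes summed to less in sum1∆ (22635 and 22673) than in sir4∆ (24925 and 25281).

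ATP1 and ATP2 encode the alpha and beta subunits that form the catalytic head, and ATP3 the gamma subunit that turns inside it. ATP1 (KLLA0E06667g) had 1793 and 1716 FPKM in sir2∆, 1293 and 1291 in sir4∆, 1343 and 1340 in sum1∆, and 1622 and 1493 in WT. Its log2 fold changes were 0.17 in sir2∆ (SE 0.05, limma adjusted p = 0.0202, or 0.115 without sir2∆ replicate 1 and 0.111 without WT replicate 2), -0.27 in sir4∆ (SE 0.05, adjusted p = 0.00515) and -0.21 in sum1∆ (SE 0.05, adjusted p = 0.00655, or 0.277 with quantile normalization). ATP2 (KLLA0D10703g) had 2500 and 2503 FPKM in sir2∆, 1797 and 1817 in sir4∆, 1759 and 1663 in sum1∆, and 2512 and 2279 in WT. Its libraries overlapped with WT in sir2∆ (log2 fold change 0.06, adjusted p = 0.346) and lay below WT in sir4∆ (-0.40, adjusted p = 0.00148) and sum1∆ (-0.48, adjusted p = 0.000121), with an SE of 0.06 in each.

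ATP3 (KLLA0B06886g) had the lowest fold change of the set in both sir2∆ and sum1∆. It had 1133 and 1196 FPKM in sir2∆, 999 and 988 in sir4∆, 789 and 845 in sum1∆, and 1370 and 1280 in WT. All 6 mutant libraries lay below both WT libraries, with log2 fold changes of -0.19, -0.41 and -0.70 in sir2∆, sir4∆ and sum1∆ (SE 0.06 each, limma adjusted p = 0.0224, 0.00148 and 1.79e-05). In sir2∆ the adjusted p of ATP3 was 0.129 without sir2∆ replicate 1 and 0.11 without WT replicate 1.

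Next after ATP3 in sum1∆ were ATP16, the F1 delta subunit, and ATP7, stator subunit d. ATP16 (KLLA0F14773g) had 1339 and 1301 FPKM in sir2∆, 1154 and 1146 in sir4∆, 926 and 903 in sum1∆, and 1396 and 1276 in WT. Its log2 fold change was -0.02 in sir2∆, -0.22 in sir4∆ and -0.55 in sum1∆ (SE 0.05 each, limma adjusted p = 0.811, 0.0148 and 4.76e-05). In sir4∆ ATP16 missed the test with only sir4∆ and WT in the fit (limma adjusted p = 0.0626). Without WT replicate 1 its fold change there was -0.15. ATP7 (KLLA0E18107g) had 1638 and 1709 FPKM in sir2∆, 1415 and 1526 in sir4∆, 1267 and 1249 in sum1∆, and 1809 and 1793 in WT. ATP7 stood at -0.11, -0.29 and -0.52 in sir2∆, sir4∆ and sum1∆ (SE 0.05 each, limma adjusted p = 0.101, 0.00318 and 4.61e-05). The sum1∆ libraries were the lowest of the 4 strains for both genes. ATP18, the Fo subunit i/j and the most abundant of the set, was lower in sum1∆ in the values as deposited (-0.31) but stood at 0.02 with quantile normalization. ATP16 is 5 genes from KLLA0F14663g, the entry near 0 in sir2∆.

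The ATP synthase assembly factors differed among themselves. Of 6, 3 were higher and 1 lower in sir2∆ (median log2 fold change 0.19), none was higher and 4 were lower in sir4∆ (median -0.20), and 3 were higher and 1 lower in sum1∆ (median 0.48). None was higher in sir4∆ at an unadjusted p below 0.05 in limma either, and 4 were lower. The sir4∆ count was 1 without sir4∆ replicate 1, without WT replicate 1 or with only sir4∆ and WT in the fit, and 2 with depth class as a term.

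ATP23 (KLLA0C09130g), a protease and chaperone that processes the mitochondrially encoded subunit a, was the member called in sum1∆ outside complex IV. It had 159 and 173 FPKM in sir2∆, 76.6 and 86.3 in sir4∆, 217 and 221 in sum1∆, and 111 and 108 in WT. The log2 fold change was 0.60 in sir2∆ (SE 0.07, limma adjusted p = 0.000242), -0.42 in sir4∆ (SE 0.07, adjusted p = 0.00308) and 1.00 in sum1∆ (SE 0.07, adjusted p = 8.22e-06). At the fold threshold itself, the sum1∆ call was lost without sum1∆ replicate 2 (0.99), without WT replicate 2 (0.98) and under 3 other settings (0.96 to 0.98).

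ATP10, a chaperone for subunit a, and ATP22, needed to translate subunit a, also rose in sir2∆ (0.40 and 0.38) and in sum1∆ (0.82 and 0.90). The rise of ATP22 in sir2∆ missed the test without sir2∆ replicate 1 (adjusted p = 0.0941), without sir2∆ replicate 2 (0.092) and without WT replicate 2 (0.142). ATP11 (KLLA0E07195g), the chaperone of the F1 beta subunit, went the other way. It had 239 and 248 FPKM in sir2∆, 221 and 242 in sir4∆, 235 and 229 in sum1∆, and 278 and 269 in WT. All 6 mutant libraries lay below WT, with log2 fold changes of -0.17 in sir2∆, -0.24 in sir4∆ and -0.24 in sum1∆ (SE 0.06 each, limma adjusted p = 0.0388, 0.014 and 0.00764). The fall in sir2∆ missed the test whichever of the 4 libraries was left out (adjusted p = 0.062 to 0.164). That in sir4∆ missed it without sir4∆ replicate 1 (0.0722) and WT replicate 1 (0.0702), and that in sum1∆ without sum1∆ replicate 2 (0.0584). ATP12, the chaperone of the F1 alpha subunit, was at -0.20 in sir4∆ (adjusted p = 0.0304, or 0.144 without sir4∆ replicate 1 and 0.106 and 0.0636 without WT replicates 1 and 2) and missed the test in the other 2 mutants. ATP25 (KLLA0F02948g), an assembly factor of the Fo ring in S. cerevisiae, had 53.6 and 55.3 FPKM in sir2∆, 61.1 and 64.6 in sir4∆, 64.5 and 62.3 in sum1∆, and 59.0 and 57.2 in WT. It passed the test in no comparison with WT (-0.09, 0.11 and 0.12 in sir2∆, sir4∆ and sum1∆, SE 0.06 each, limma adjusted p = 0.188, 0.15 and 0.0811).

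**Figure D4:**
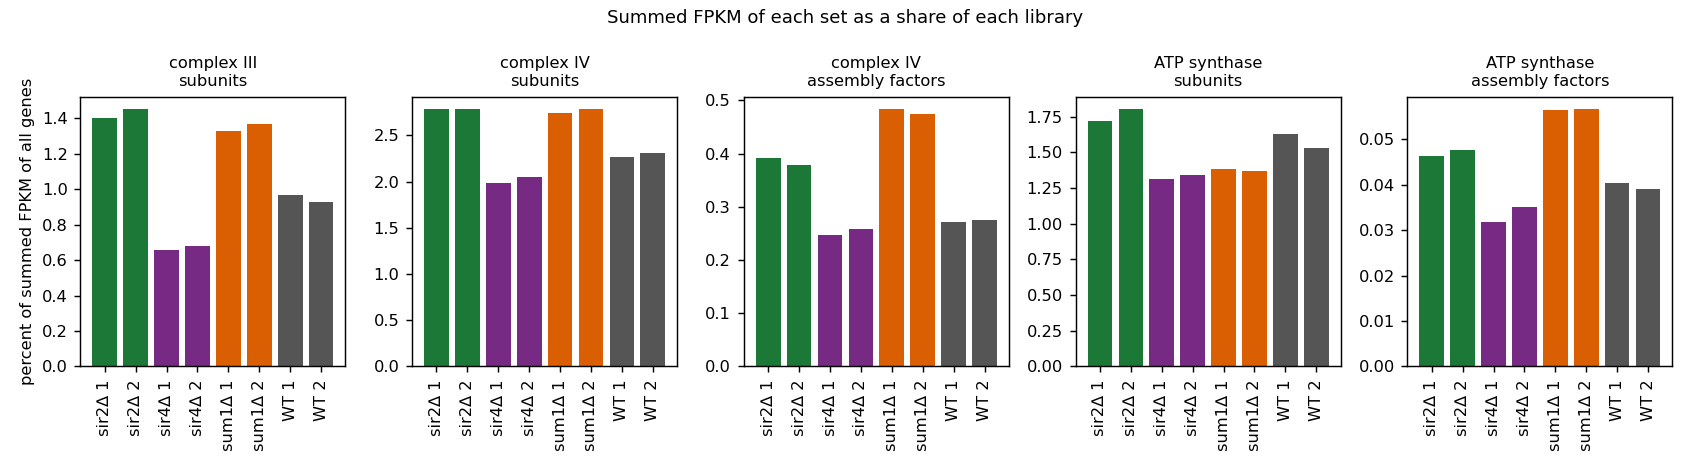
Summed FPKM of each set as a percentage of the FPKM of all genes (y axes from 0, scaled per panel) in each library of sir2∆, sir4∆, sum1∆ and WT from left to right. Complex III subunits are at 1.33% to 1.45% in sir2∆ and sum1∆, 0.658% and 0.678% in sir4∆, and 0.968% and 0.93% in WT, while ATP synthase subunits are at 1.31% to 1.38% in sir4∆ and sum1∆. The FPKM total of all genes is smaller in sum1∆ than in the other strains.

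The mutants were also compared with each other. Comparisons that share a strain are not independent. In sir2∆ against sir4∆, 37 members were higher and 3 lower, where 36% and 34.8% of all genes were higher and lower, with a median log2 fold change of 0.44. All 25 subunits of the 3 complexes were among the higher. The 10 ATP synthase subunits had a median of 0.24, and of 0.21 to 0.29 with a library left out. Not every ATP synthase subunit passed the test in each fit that left out a library. Here 9 members were called higher and none lower, against 8.74% and 3.23% of all genes. These were CYT1 (1.19), QCR6 (1.35), QCR9 (1.17), RIP1 (1.02), COX17 (1.24), COX18 (1.03), COX19 (1.32), COX23 (1.31) and ATP23 (1.02). ATP23 lost the call without sir2∆ replicate 2 (0.96), without sir4∆ replicate 1 (0.93) and under 3 other settings (0.97 to 0.98). RIP1 lost it with depth class as a term (0.97), and COX18 with 5 as the pseudocount (0.97) and with quantile normalization (0.95). The lower members were COX15 (-0.55), COX16 (-0.35) and ATP25 (-0.20), of which COX16 missed the test without sir2∆ replicate 2 (adjusted p = 0.0503), and ATP25 without sir2∆ replicate 1 (0.0583) and sir4∆ replicate 2 (0.0535).

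In sum1∆ against sir4∆, 26 members were higher and 5 lower, against 36.3% and 37.1% of all genes, with a median log2 fold change of 0.47. Both sir4∆ libraries were shallow and both sum1∆ libraries deep, so these 2 strains alone cannot tell depth from strain. With depth class as a term, which only sir2∆ and WT inform, 25 members were higher and 6 lower (1565 and 1488 of all genes). There were 9 members called higher and none lower (12.7% and 4.9% of all genes), and 7 to 12 were called higher over the alternatives. ATP10 lost the call without sir4∆ replicate 1 (0.96) and under 2 other settings (0.98 each). ATP22 lost it without sir4∆ replicate 1 (0.82), without sum1∆ replicate 2 (just below 1) and under 3 other settings (0.80 to 0.93). All 8 complex III subunits were higher (median 0.91). ATP synthase subunits, low in both strains against WT, were higher in none and lower in 4 (median -0.08), but 3 were higher and 2 lower with quantile normalization (median 0.07). The widest differences were those of COX23 (1.68), COX19 (1.56) and COX17 (1.48).

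The ATP synthase subunits set sum1∆ apart from sir2∆. In sum1∆ against sir2∆, 11 members were higher and 13 lower, against 24.2% and 16.7% of all genes, with a median log2 fold change of -0.07 (all genes 0.03). None was called (0.677% and 1.73% of all genes). All 10 ATP synthase subunits were lower (median -0.38, range -0.55 for ATP2 to -0.29 for ATP17), and 9 or 10 were lower in each alternative. Of the complex III subunits, QCR8, QCR9 and QCR10 stood at -0.18, -0.27 and -0.23 and passed the test, and the other 5 missed it. QCR9 missed it without sum1∆ replicate 1 (adjusted p = 0.077), QCR8 without that library (0.0944) or sir2∆ replicate 2 (0.0742), and QCR10 without either sum1∆ library (0.0576 and 0.054) or sir2∆ replicate 1 (0.0602). No complex IV subunit passed the test, and 2 were lower at an unadjusted p below 0.05. The 11 higher members were all assembly factors, and the counts higher were 5 without sir2∆ replicate 1, 6 without sum1∆ replicate 1 and 5 without sum1∆ replicate 2.

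Genes that act with these complexes were listed by textbook role and found by symbol. No list was tested as a set. Of all tested genes, 28.9% and 29.2% were higher and lower in sir2∆, 16.8% and 20.9% in sir4∆, and 33.6% and 32.6% in sum1∆. Called higher and lower were 4.9% and 0.717% in sir2∆, 0.617% and 0.737% in sir4∆, and 7.73% and 2.87% in sum1∆. These shares apply to every list below. In complex III, COR1, the other core subunit, had 1173 and 1228 FPKM in sir2∆, 654 and 653 in sir4∆, 1115 and 1177 in sum1∆, and 915 and 849 in WT. The log2 fold changes of COR1, 0.44, -0.43 and 0.38 in sir2∆, sir4∆ and sum1∆, passed the test (limma adjusted p = 0.000309, 0.00119 and 0.000467) and lay within the range of the QCR genes. With COR1, the list for assembly of complex III and cytochrome c had 11 of 15 genes tested, of which 7 were higher and 1 lower in sir2∆, 0 and 7 in sir4∆, and 8 and 0 in sum1∆. BCS1, which inserts the Rieske protein, had 39.5 and 43.0 FPKM in sir2∆, 22.5 and 20.1 in sir4∆, 57.3 and 58.3 in sum1∆, and 25.3 and 23.8 in WT. It was called in sum1∆ (1.20, adjusted p = 4.17e-06), rose in sir2∆ (0.72, adjusted p = 0.000119) and stood at -0.20 in sir4∆ (adjusted p = 0.0742).

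Of 29 listed factors for complex IV assembly and translation that are not named COX, 26 were tested. In sir2∆ 14 were higher and 4 lower, in sir4∆ 2 and 15, and in sum1∆ 20 and 2. The 4 called in sum1∆ were PET117 (1.29), PET191 (1.20), COA3 (1.06) and RCF1 (1.13), of which COA3 lost the call without WT replicate 2 (0.92) and with depth class as a term (0.96). PET117, an assembly factor of the oxidase, had 550 and 587 FPKM in sir2∆, 172 and 202 in sir4∆, 715 and 700 in sum1∆, and 292 and 284 in WT. Of 12 listed assembly factors, regulators and further subunits of ATP synthase, 6 were tested. In sir2∆ 3 were higher and 2 lower, in sir4∆ 1 and 3, and in sum1∆ 2 and 2. AEP1, which acts in expression of the mitochondrial subunit 9 mRNA, was at 0.41, -0.30 and 0.77, and TIM11, Fo subunit e, at 0.28, -0.49 and -0.15 in sir2∆, sir4∆ and sum1∆.

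Taken as lists, complex II and the NADH and other dehydrogenases did not follow complex III in sir2∆ or sum1∆. Their median log2 fold changes in sir2∆ and sum1∆ were -0.07 and -0.75 for complex II, and 0.02 and -0.42 for the dehydrogenases. Of 8 listed complex II (succinate dehydrogenase) genes, subunits and assembly factors together, 7 were tested. Of these, 2 were higher and 2 lower in sir2∆, 0 and 5 in sir4∆, and 2 and 4 in sum1∆. The 2 higher were SDH6 (0.27 in sir2∆ and 0.46 in sum1∆) and SDH8 (0.49 and 0.23), both assembly factors. The subunits SDH1, SDH2 and SDH3 stood at -0.07, -0.16 and -0.27 in sir2∆, where only SDH3 passed the test. SDH2, the iron-sulfur subunit, had 866 and 754 FPKM in sir2∆, 678 and 636 in sir4∆, 345 and 352 in sum1∆, and 931 and 870 in WT. It was called lower in sum1∆ at -1.37 (adjusted p = 1.9e-06), as were SDH3 at -1.47 and SDH1 at -1.07, the last of which lost the call without WT replicate 1 (-0.98). Of 8 listed NADH and other dehydrogenases 5 were tested, with 1 higher and 1 lower in sir2∆, 1 and 3 in sir4∆, and 0 and 3 in sum1∆. The gene higher in sir2∆ was CYB2, at 0.28. GUT2, mitochondrial glycerol-3-phosphate dehydrogenase, had 271 and 214 FPKM in sir2∆, 513 and 470 in sir4∆, 77.6 and 82.7 in sum1∆, and 356 and 377 in WT. It was called lower in sum1∆ at -2.18 (limma adjusted p = 9.95e-07). It was also lower in sir2∆, at -0.60 (adjusted p = 0.00172), and higher in sir4∆, at 0.42 (adjusted p = 0.0151). NDI1, the internal NADH dehydrogenase, was called lower in sir4∆ at -1.02 (adjusted p = 0.000579), a call lost without sir4∆ replicate 1 (-0.94) or WT replicate 1 (-0.90) and with depth class as a term (-0.93). In sir2∆ NDI1 stood at -0.01, which missed the test.

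Of the 8 haem synthesis genes, all tested, 2 were higher and 2 lower in sir2∆, 2 and 2 in sir4∆, and 6 and 2 in sum1∆. The shares of all genes were 28.9% and 29.2% in sir2∆, 16.8% and 20.9% in sir4∆, and 33.6% and 32.6% in sum1∆. HEM13, coproporphyrinogen oxidase, which uses oxygen, had 403 and 325 FPKM in sir2∆, 1691 and 1608 in sir4∆, 331 and 374 in sum1∆, and 770 and 967 in WT. The log2 fold changes were -1.25, 0.93 and -1.29 in sir2∆, sir4∆ and sum1∆ (limma adjusted p = 0.000117, 0.00154 and 5.57e-05), opposite in sign to those of CYT1 in each strain. HEM15, the highest of the list in sir2∆ (0.46) and sum1∆ (0.63), had the sign of CYT1 there. It had 311 and 306 FPKM in sir2∆, 196 and 210 in sir4∆, 346 and 348 in sum1∆, and 233 and 215 in WT. Of 11 coenzyme Q genes 10 were tested, with 0 higher and 3 lower in sir2∆, 2 and 1 in sir4∆, and 4 and 3 in sum1∆, none called. Of 8 carriers and porins 3 were tested, with 1 higher and 1 lower in sir2∆, 0 and 3 in sir4∆, and 0 and 2 in sum1∆. PET9, the ADP/ATP carrier, was at -0.08 in sir2∆ (not past the test), -0.86 in sir4∆ and -0.79 in sum1∆. MIR1, another carrier, was the highest of the 3 in sir2∆ (0.56) and sum1∆ (-0.14) and the lowest in sir4∆ (-0.95).

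Of 13 listed transcription regulators, all tested, 3 were higher and 5 lower in sir2∆, 2 and 2 in sir4∆, and 2 and 6 in sum1∆. Among all genes 28.9% and 29.2% were higher and lower in sir2∆, 16.8% and 20.9% in sir4∆, and 33.6% and 32.6% in sum1∆. ROX1, a repressor of hypoxic genes in S. cerevisiae, had 27.4 and 26.9 FPKM in sir2∆, 12.1 and 13.1 in sir4∆, 34.1 and 36.3 in sum1∆, and 10.6 and 11.7 in WT. It was called in sir2∆ (1.21, or under the fold threshold at 0.94 with quantile normalization and 0.99 with 5 as the pseudocount) and sum1∆ (1.57) and stood at 0.16 in sir4∆ (adjusted p = 0.131). RTG1, a subunit of the retrograde response activator, had 40.3 and 39.5 FPKM in sir2∆, 8.71 and 11.9 in sir4∆, 10.9 and 9.34 in sum1∆, and 13.7 and 14.6 in WT. It was called in sir2∆ (1.43) and was lower in sir4∆ (-0.44) and sum1∆ (-0.45). RTG1 is the next gene (1 apart) to KLLA0F14663g in the gene order, and the part of that place in its sir2∆ level was not tested. HAP1, the haem-responsive activator, was at -0.59, 0.47 and -0.08 in sir2∆, sir4∆ and sum1∆, the last not past the test. HAP2, HAP3, HAP4 and HAP5 form the CCAAT-binding activator of respiratory genes in S. cerevisiae and were singled out after their values were seen. In sir2∆ they were at -0.32, 0.31, -0.17 and 0.04, in sir4∆ at 0.11, 0.01, -0.24 and 0.08, and in sum1∆ at -0.39, 0.57, -0.48 and 0.05. HAP2 and HAP3 passed the test in sir2∆ and sum1∆ and HAP4 in sum1∆. None of the 4 passed it in sir4∆.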

How the data were processed

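Each of the 8 libraries has an FPKM value for 5076 genes, as the authors deposited them. Per the submitters' processing notes, TopHat2 2.0.10 and Cuffnorm 2.2.1 were used. Which genome build and gene models were used is not given in the sources used here. Per the labels' protocols, total RNA was read as single 50-base reads from a kit that does not keep strand, so reads of overlapping or antisense genes cannot be told apart. Reads may also be split between close paralogs.

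Locus tags of the reference gene table were found for all 5076 identifiers, and 3959 have a symbol. The test was limma 3.58.1 (R 4.3.3) on log2(FPKM + 1) of the 5022 genes averaging 1 FPKM or more, with eBayes trend and all 4 strains in 1 fit (4 residual and 4.02 prior degrees of freedom), and Benjamini-Hochberg adjustment over all tested genes. The pseudocount of 1 understates changes of low genes. The script was tested on simulated data. Depth was estimated from genes over 600 bases with at most 100 reads, which came out as whole reads within 0.1 in 95.7% to 100% of cases, assuming fragments of mean 200 and SD 80 bases. Counting error is covered only as far as the spread between libraries shows it.

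Full values are given for members called, the 3 highest and 3 lowest fold changes per mutant, and CYT1, RIP1, QCR2, COX4, COX6, ATP1, ATP2, ATP3, COX17 and ATP11. Of the other lists, the genes called and examples are named. Members and lists were chosen with earlier results of these data known. Alternatives were other pseudocounts (0.1 and 5), no filter, quantile and median-ratio scaling, a replicate block, a depth term, only the strains compared, and leaving out each library. Python 3.11.15, numpy 2.4.6 and pandas 2.3.3 did the rest. No sequences are shown.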

Additional observations from a re-analysis of the deposited data

How the results depend on the processing

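Over 12 alternatives for each mutant against WT, 447 of 492 member values in sir2∆, 443 of 492 in sir4∆ and 472 of 492 in sum1∆ kept their direction and their side of the threshold. These shares include members that missed the test as reported. The pseudocounts of 0.1 and 5 and median-ratio scaling left the counts of higher and lower members against WT unchanged. In each mutant some members that had passed lost the test under some alternative. The median over all tested genes shifted most with quantile normalization in sum1∆ against sir4∆, to -0.12, where it was -0.01. With that scaling the members' median was 0.30 in sir2∆ (0.19 as reported), 0.38 in sum1∆ (0.21), 0.64 in sum1∆ against sir4∆ (0.47, with 3 lower members in place of 5), 0.54 in sir2∆ against sir4∆ (0.44) and 0.00 in sum1∆ against sir2∆ (-0.07). It also reversed ATP16 in sir2∆ (0.01), ATP18 (0.02) and COX7 (0.29) in sum1∆, and ATP18 in sum1∆ against sir4∆ (0.29). COX16 in sir4∆ reversed with depth class as a term (-0.01). Without the filter 1 member, COX20, was higher in sir4∆ (0.12). The cause of these shifts was not tested.

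Leaving out each library gave members' medians of 0.19 to 0.23 in sir2∆, -0.33 to -0.24 in sir4∆, 0.17 to 0.25 in sum1∆, 0.42 to 0.53 in sum1∆ against sir4∆ and 0.35 to 0.48 in sir2∆ against sir4∆. Counts were 2 lower and 0 to 2 called higher in sir2∆, 0 to 1 higher in sir4∆, and 5 to 9 higher in sum1∆ against sir2∆. Ranges that crossed 0 were, in sir2∆, -0.03 to 0.03 for ATP12, -0.08 to 0.05 for ATP16, -0.14 to 0.01 for ATP4 and -0.01 to 0.13 for ATP2, and in sir4∆, -0.31 to 0.08 for ATP22 and -0.05 to 0.21 for COX16.

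The replicate numbers did not pair the libraries (correlations of -0.251 to 0.0251 between strains). A replicate block gave 24 higher and 3 lower members in sir2∆ (1376 and 1387 of all genes). It gave 0 and 30 in sir4∆ (730 and 939) and 22 and 12 in sum1∆ (1610 and 1556). Shallow libraries limit the lowest members most.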
